A study of Mus musculus with 12 samples.

Results

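The Ly6 genes measured here are Ly6a, Ly6c1, Ly6c2, Ly6d, Ly6e, Ly6g5b and Ly6k, which are 7 of the 52636 genes in the count table. They were chosen by name, with fold changes of these same libraries already known, so every contrast below counts as one that bore on the choice. The fold changes, intervals and adjusted p-values of the 7 genes are therefore given as a description and support nothing by themselves. All 7 passed the filter on low counts and none was too low to be fitted. Ly6d and Ly6k came closest to that limit, with 24 to 147 and 21 to 75 raw counts per library.

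Ly6 proteins are small, disulfide-rich molecules of the Ly6 and uPAR family, and most are held on the outer cell surface by a glycosylphosphatidylinositol (GPI) lipid anchor. Ly6a encodes Sca-1, a marker of blood stem cells that T cells also carry and raise upon activation and interferon signaling. Ly6c1 and Ly6c2 encode the closely related Ly6C antigens, which are used to separate memory CD8+ T cells and monocyte subsets. Ly6e is an interferon-induced gene with broad expression, Ly6d is best known from early B cells and keratinocytes, Ly6k from male germ cells, and Ly6g5b is a little studied gene of the major histocompatibility complex region.

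CD8+ tumor-infiltrating cells were flow sorted as GFP+ or GFP- from A2AR eGFP reporter mice, which carry a bacterial artificial chromosome with EGFP under the regulatory sequences of Adora2a, the gene of the adenosine receptor A2AR. GFP thus reports the transgene and not the receptor protein. All mice were female, on the C57BL/6 background, and bore AT-3 ova tumors, a mouse mammary carcinoma line that expresses ovalbumin, injected under the skin. There were 3 libraries of each of 4 groups, namely GFP- and GFP+ cells of non-treated mice and GFP- and GFP+ cells of mice given anti-PD-L1 on days 14 and 18, all harvested on day 21. Each library was pooled from several mice, so the spread between libraries is a spread between pools.

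The 12 libraries held 11292699 to 19023900 counts. Adora2a was at 19.7 to 24.3 CPM (a gene's counts scaled to a common library size with trimmed-mean factors) in GFP- and 60.2 to 67.3 CPM in GFP+ cells of non-treated mice, and at 26.0 to 34.6 CPM in GFP- and 66.3 to 111 CPM in GFP+ cells after anti-PD-L1, and thus higher in all 6 sorted GFP+ pools than in any GFP- pool. Cd8a was high throughout (799 to 1360 CPM), and Cd4 did not exceed 0.919 CPM. Among defining markers of other cells, S100a8 reached 0.890 CPM, Cd79a 0.940 CPM, Siglech 2.18 CPM and Ncr1 6.65 CPM, whereas C1qa lay between 26.6 and 96.2 CPM and Lyz2 between 3.32 and 31.9 CPM. One GFP+ library of each treatment stood apart from the rest. KT13 (non-treated) and KT21 (anti-PD-L1) had median rank correlations with all others of 0.941 and 0.936, against 0.967 to 0.977 for the remaining 10. KT13 and KT21 were also the least deep libraries, with 11292699 and 12881695 counts. Results are therefore given over 12 libraries and over the 10 without KT13 and KT21. The 2 were set apart on these same data, so fits over 10 leave out the spread they add.

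Of the members, 6 lie on mouse chromosome 15, in the Ly6 cluster, and Ly6g5b lies on chromosome 17 (GRCm38, GENCODE annotation). Ly6a is at chr15:74994877-74998031, Ly6c1 at chr15:75044018-75048830 and Ly6c2 at chr15:75108158-75111970, all on the minus strand. Ly6e is at chr15:74955051-74959905 on the plus strand, and Ly6d at chr15:74762056-74763620 and Ly6k at chr15:74796874-74799986 on the minus strand. Ly6g5b is at chr17:35113948-35115428 on the minus strand, 768 bases from Csnk2b, a casein kinase subunit gene on the same strand.

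Promoter windows (250 bases before to 50 after an annotated start, RefSeq, GRCm38.p6) were at hand for 3 of the 7 members, Ly6c1, Ly6c2 and Ly6g5b. The Ly6C pair is shown first, because the paralogs differed widely in counts and yet moved together. How far reads assigned to the wrong gene of the pair add to that likeness was not tested. Capitals mark bases that differ or have no partner in the alignment of the 2 windows (chr15:75048788-75049087 and chr15:75111922-75112221, both minus strand). Of 266 aligned bases, 208 were identical (78.2%).
Ly6c1: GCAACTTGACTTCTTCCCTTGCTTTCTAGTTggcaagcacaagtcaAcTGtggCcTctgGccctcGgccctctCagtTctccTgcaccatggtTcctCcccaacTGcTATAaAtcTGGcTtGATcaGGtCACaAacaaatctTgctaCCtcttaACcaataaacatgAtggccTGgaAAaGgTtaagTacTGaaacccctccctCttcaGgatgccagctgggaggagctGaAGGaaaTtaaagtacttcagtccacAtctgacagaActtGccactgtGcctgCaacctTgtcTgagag
Ly6c2: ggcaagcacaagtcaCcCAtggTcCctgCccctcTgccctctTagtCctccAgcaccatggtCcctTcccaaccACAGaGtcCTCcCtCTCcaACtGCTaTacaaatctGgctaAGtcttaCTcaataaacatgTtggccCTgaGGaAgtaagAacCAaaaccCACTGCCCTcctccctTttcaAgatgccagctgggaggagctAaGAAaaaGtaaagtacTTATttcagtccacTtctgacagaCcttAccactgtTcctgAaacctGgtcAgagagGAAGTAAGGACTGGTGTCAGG
The window of Ly6g5b (chr17:35115460-35115759, minus strand) is shown because this gene was, with Ly6a, the member with lower values in GFP+ cells; it is all in lower case, since none of the motifs searched is in it.
Ly6g5b: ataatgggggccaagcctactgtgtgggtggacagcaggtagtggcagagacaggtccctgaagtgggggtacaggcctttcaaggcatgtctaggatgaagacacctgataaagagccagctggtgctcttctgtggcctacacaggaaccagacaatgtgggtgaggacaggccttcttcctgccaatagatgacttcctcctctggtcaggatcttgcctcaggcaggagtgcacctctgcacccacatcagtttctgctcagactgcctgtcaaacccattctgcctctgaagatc
The motifs were searched on both strands. The paired core of the interferon-stimulated response element occurs in 3.44% of 32851 mouse promoter windows, TTCNNNGAA, the STAT-binding GAS element, in 8.30% and the TATA box TATAAA in 13.6%. In the windows of the 3 members, only a TATAAA in Ly6c1 was found, with its first base at -143 from the start.

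Ly6a was the member with the clearest pattern, and its level was 2.17-fold lower in GFP+ than in GFP- cells of non-treated mice. There, the 3 GFP- libraries held 428, 444 and 488 CPM and the 3 GFP+ libraries 203, 206 and 219 CPM. After anti-PD-L1, the GFP- libraries held 424, 533 and 616.5 CPM and the GFP+ libraries 319, 379.5 and 473 CPM. All GFP+ libraries of non-treated mice were thus below every other library, and after treatment the GFP+ and GFP- ranges overlapped through KT21 alone, the library at 473 CPM.

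**Figure D1:**
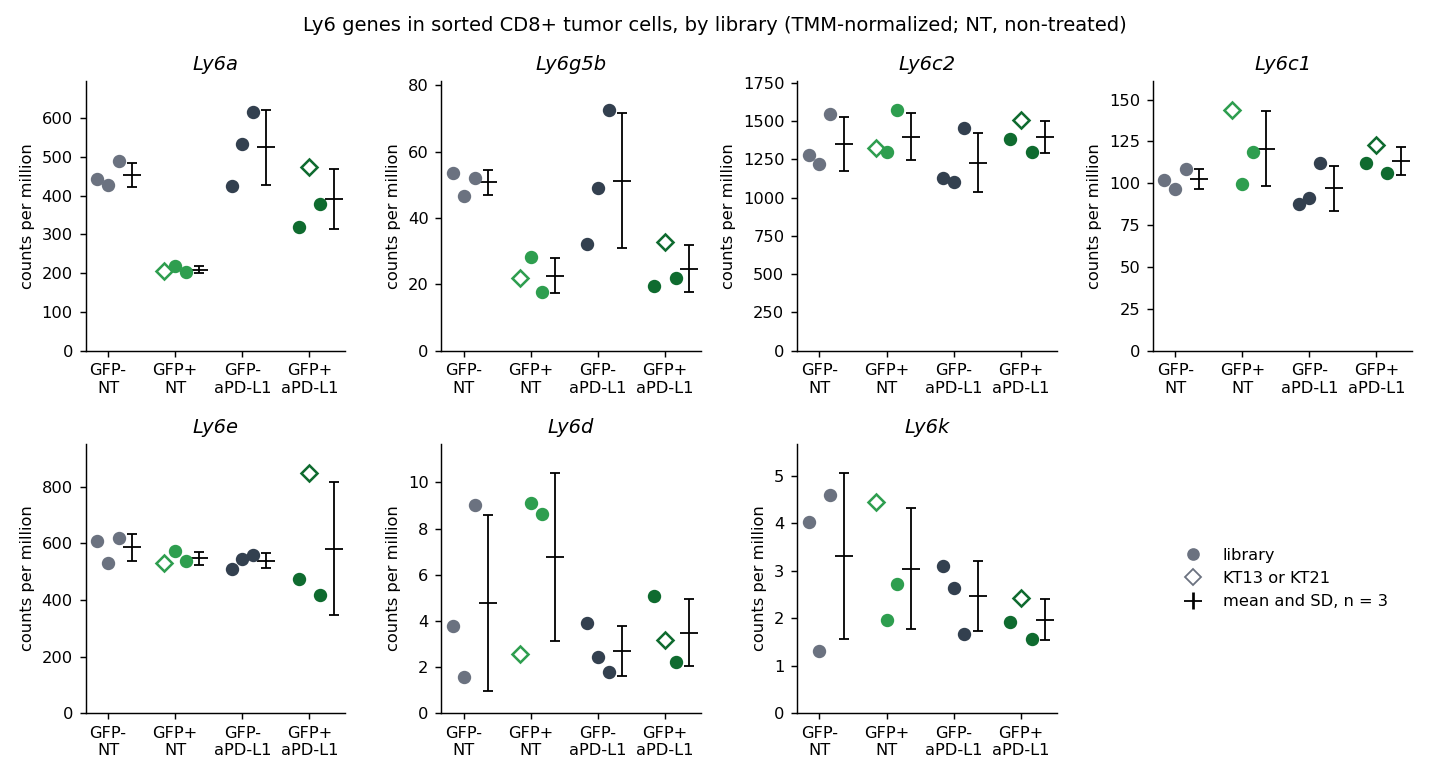
TMM-normalized CPM (vertical axis, from 0) of the 7 Ly6 genes in each library of the 4 groups (horizontal axis; NT, non-treated), with the mean and SD of 3 libraries as black bars and KT13 and KT21 as open diamonds. The GFP+ libraries of non-treated mice sit at 203 to 219 for Ly6a, below all other libraries, while Ly6c2 lies between 1103 and 1574 in all groups.

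In the edgeR quasi-likelihood fit over 12 libraries, the log2 fold change of Ly6a in GFP+ against GFP- cells of non-treated mice was -1.12 ± 0.17 (SE; 95% interval -1.49 to -0.74; adjusted p = 0.122 over 14173 genes). Over 10 libraries it was -1.10 ± 0.14 (edgeR adjusted p = 3.59e-04 over 14747 genes). The 8 other ways of fitting the counts (left-out libraries, size factors, count filters, DESeq2) gave -1.12 to -1.09, with adjusted p-values from 7.51e-12 to 0.134, and 4 of them were under 0.05. The size of the difference hardly depended on the setting, whereas the call did.

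After anti-PD-L1, the GFP+ to GFP- difference of Ly6a was smaller, at -0.42 ± 0.17 over 12 libraries (edgeR adjusted p = 0.993). Over 10 libraries it was -0.59 ± 0.14 (edgeR adjusted p = 0.0915). The adjusted p-values of the 8 alternatives, by edgeR or DESeq2, ran from 0.00672 to 0.993. Within GFP+ cells, treatment went with a log2 difference of 0.90 ± 0.17 over 12 libraries (edgeR adjusted p = 0.0946). Over 10 libraries it was called, at 0.73 ± 0.15 (edgeR adjusted p = 0.0145). Across the 8 alternatives, by edgeR or DESeq2, the adjusted p-values ran from 4.93e-04 to 0.752. Within GFP- cells the difference was 0.21 ± 0.17 (95% interval -0.16 to 0.58; edgeR adjusted p = 1). The difference between the 2 GFP effects was 0.69 ± 0.24 on the log2 scale over 12 libraries (edgeR adjusted p = 0.9999) and 0.52 ± 0.19 over 10 (adjusted p = 0.9998), so it did not pass the correction over all genes. The comparisons share groups of libraries and are not independent of each other.

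Markers of the sorted cells and of other cells were also unequal between the groups. The summed level of 7 CD8 T cell markers was 4540 to 4643 CPM in GFP- and 3867 to 4233 CPM in GFP+ cells of non-treated mice, and 5116 to 5362 CPM and 4633 to 6016 CPM after anti-PD-L1. The 4 NK cell markers summed to 109 to 130 CPM in GFP- and 187 to 223 CPM in GFP+ cells without treatment, and to 70.4 to 94.0 CPM and 156 to 223 CPM with it. The 6 B cell markers summed to 100 to 110 CPM in GFP- and 145 to 172 CPM in GFP+ cells without treatment, and to 71.3 to 85.0 CPM and 94.6 to 129 CPM with it. The 14 monocyte and macrophage markers summed to 176 to 256 CPM and 226 to 327 CPM without treatment, and to 135 to 172 CPM and 123 to 193 CPM with it. The monocyte and macrophage sums overlapped between GFP- and GFP+ cells in both treatments. In GFP- and in GFP+ cells alike, all 3 treated libraries lay below all 3 non-treated ones. The 9 dendritic cell markers summed to 61.9 to 93.2 CPM and 99.0 to 135.5 CPM without treatment, and to 54.4 to 72.1 CPM and 54.6 to 86.7 CPM with it. As a percent of the summed CD8 T cell markers, a measure added after the data were seen, Ly6a stood at 9.43 to 10.6 in GFP- and 4.87 to 5.51 in GFP+ cells of non-treated mice (log2 ratio of the means -0.92), and at 8.29 to 11.5 and 6.89 to 7.87 after anti-PD-L1 (log2 ratio -0.43). On this measure GFP+ libraries lay below GFP- libraries in both treatments, KT21 included. KT21 had the highest marker sum of all libraries (6016 CPM), which lowers its percentage. The sum also holds Cd8a and Cd8b1, whose GFP differences in non-treated mice were -0.47 ± 0.12 and -0.64 ± 0.16 over 12 libraries (neither called by edgeR). The log2 ratio of treated to non-treated GFP+ cells was 0.51. The part of the NK, B cell, macrophage and dendritic cell transcripts in the Ly6a difference was not tested, and in bulk samples fewer cells that express a gene and less RNA per cell cannot be told apart.

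Ly6g5b was likewise lower in GFP+ cells, 2.24-fold without and 2.08-fold with treatment. Without treatment, its GFP- libraries held 46.5, 51.9 and 53.7 CPM and its GFP+ libraries 17.7, 22.0 and 28.2 CPM. With anti-PD-L1, the GFP- libraries held 32.0, 49.0 and 72.5 CPM and the GFP+ libraries 19.4, 21.9 and 32.7 CPM. The groups did not overlap in non-treated mice, and after treatment they met between KT20 (32.0) and KT21 (32.7).

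The log2 fold change of Ly6g5b between GFP+ and GFP- cells was -1.16 ± 0.28 in non-treated mice (edgeR adjusted p = 0.386) and -1.06 ± 0.28 after anti-PD-L1 (adjusted p = 0.519) over 12 libraries. Over 10 libraries it was -1.14 ± 0.25 (adjusted p = 0.044) and -1.31 ± 0.25 (adjusted p = 0.0178), both called by edgeR. Across the 8 alternatives, which include that 10-library fit, adjusted p-values by edgeR or DESeq2 ran from 2.85e-04 to 0.426 without treatment. With treatment they ran from 5.16e-04 to 0.981. The log2 treatment differences of Ly6g5b did not pass the test, at 0.12 ± 0.28 in GFP+ and 0.01 ± 0.28 in GFP- cells over 12 libraries, and -0.16 ± 0.27 and 0.02 ± 0.21 over 10. Csnk2b, the neighbor on the same strand, held 109 to 127 CPM in GFP- and 110, 114 and 182 CPM in GFP+ cells of non-treated mice, with a log2 fold change of 0.18 ± 0.21, and a second annotated Ly6g5b start lies within Csnk2b. The 75-base words from the last 300 bases of Ly6g5b transcripts occurred in no other gene.

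**Figure D2:**
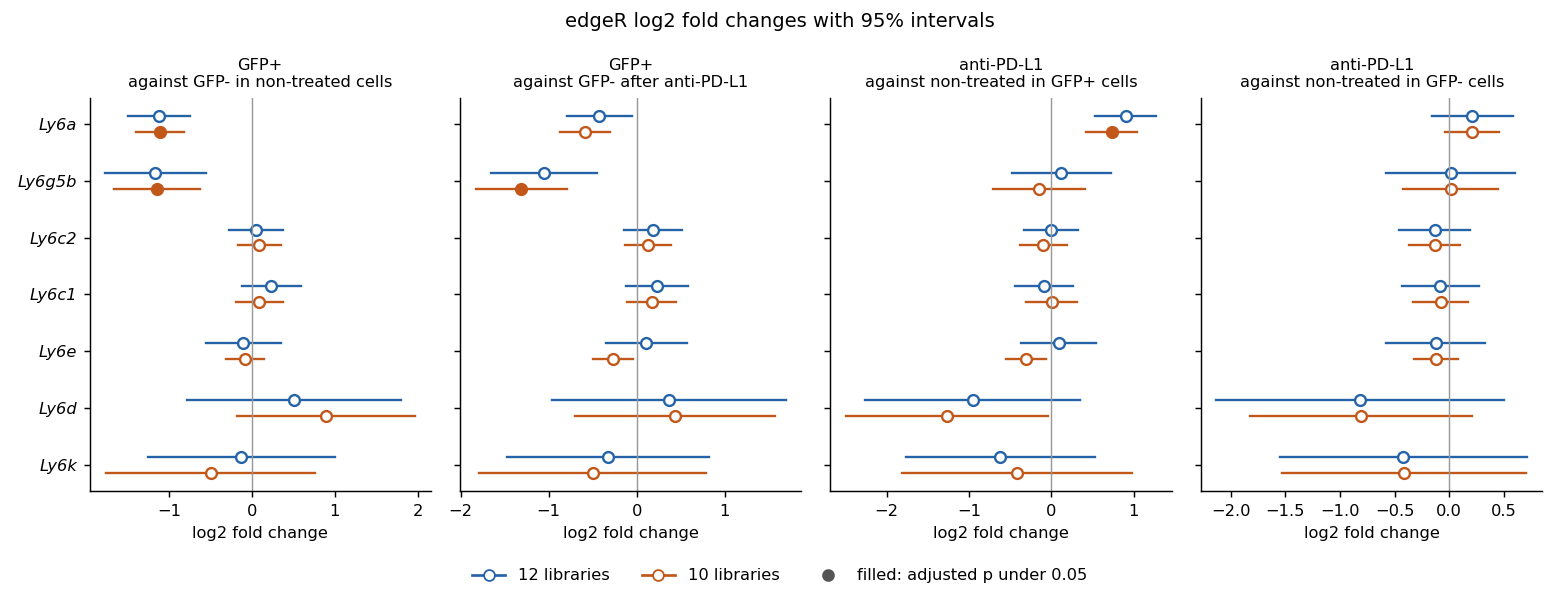
edgeR log2 fold changes (horizontal axis) with 95% intervals (lines) of the 7 Ly6 genes in the 4 comparisons, over 12 libraries (blue) and over the 10 without KT13 and KT21 (orange); filled points have an adjusted p under 0.05. Ly6a and Ly6g5b lie near -1.1 in non-treated mice with both sets of libraries, and the intervals of Ly6c1 and Ly6c2 include 0 in every panel.

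Ly6c2, the leading Ly6C gene of blood leukocytes, was the member with the most counts and did not differ detectably in any comparison. Its libraries ranged from 1223 to 1550 CPM in GFP- and from 1298 to 1574 CPM in GFP+ cells of non-treated mice, and from 1103 to 1454 CPM and 1298 to 1505 CPM after anti-PD-L1. The 4 groups overlapped throughout. Log2 fold changes over 12 libraries were 0.05 ± 0.15 for GFP without treatment (95% interval -0.28 to 0.38), 0.18 ± 0.15 for GFP after anti-PD-L1 (-0.15 to 0.51), -0.00 ± 0.15 for treatment in GFP+ cells (-0.33 to 0.32) and -0.13 ± 0.15 for treatment in GFP- cells (-0.46 to 0.19). Changes of the size seen for Ly6a in non-treated mice are outside these intervals. Over 10 libraries the log2 fold changes of Ly6c2 were 0.09 ± 0.13, 0.12 ± 0.13, -0.10 ± 0.14 and -0.13 ± 0.11, in the same order.

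Ly6c1, the Ly6C gene best known from endothelium, had far fewer counts than Ly6c2, which exceeded it 9.23-fold to 14.2-fold in counts per library, and none of its differences was called. Its group means were 102 ± 6.1 CPM (SD, n = 3) in GFP- and 121 ± 22 CPM in GFP+ cells of non-treated mice, and 96.9 ± 13 CPM and 113.5 ± 8.4 CPM after anti-PD-L1. The highest library was KT13, at 144 CPM. Over 12 libraries, log2 fold changes were 0.23 ± 0.16 and 0.23 ± 0.17 for GFP without and with treatment. For treatment in GFP+ and GFP- cells they were -0.09 ± 0.16 and -0.08 ± 0.16. Without KT13 and KT21 the values were 0.09 ± 0.14, 0.17 ± 0.14, 0.00 ± 0.15 and -0.08 ± 0.12, in the same order. The 6 endothelial markers summed to no more than 25.7 CPM in any library.

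The transcripts of the Ly6C pair are 97.6% identical over 822 aligned bases, which limits how well short reads can be assigned. Of the 75-base words in the last 300 bases of their transcripts, where 3′ libraries collect reads, 21.8% of those of Ly6c1 and 9.84% of those of Ly6c2 occur in another gene, whereas the share was 0.190% for Ly6a and 0% for the other 4 members. How shared reads were counted is not given in the sources used here. The share of Ly6c2 in the counts of both genes was 92.4 to 93.4% in 11 libraries. It was 90.2% in KT13 (95% Wilson interval 89.8 to 90.7%, which covers counting error only). A steady share does not show that reads were assigned to the right gene, since misassigned reads could give one too, and this was not tested. Group means were 92.9 ± 0.47% (SD, n = 3) in GFP- and 92.0 ± 1.6% in GFP+ cells of non-treated mice and 92.7 ± 0.27% and 92.5 ± 0.04% after anti-PD-L1. Two-sided exact permutation tests gave p = 0.6 and 0.4 for GFP without and with treatment and p = 1 and 0.6 for treatment in GFP+ and GFP- cells (adjusted over the 4 comparisons, 0.8, 0.8, 1 and 0.8), where 0.1 is the smallest p that 3 against 3 allow.

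**Figure D3:**
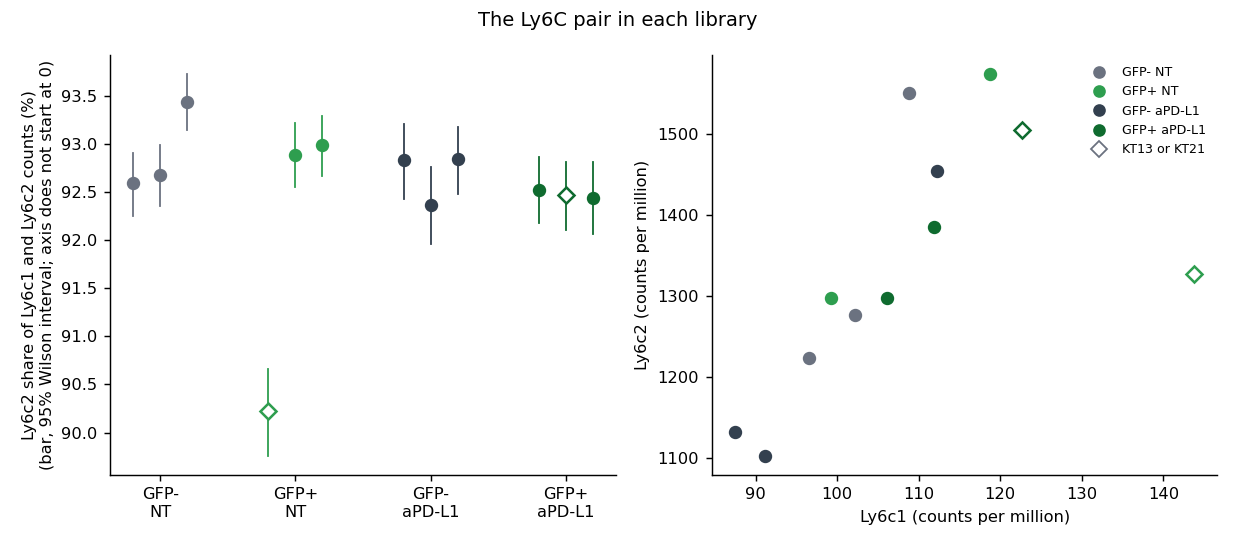
Left, the share of Ly6c2 in the counts of Ly6c1 and Ly6c2 in each library by group, with 95% Wilson intervals as bars, on an axis from about 90 to 94%; right, Ly6c2 against Ly6c1 in CPM. All libraries except KT13, at 90.2%, lie between 92.4 and 93.4%.

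Ly6e, the interferon-induced member, differed little between groups except in one library. GFP- and GFP+ cells of non-treated mice held 532 to 619 CPM and 533 to 573 CPM, and GFP- cells after anti-PD-L1 held 509 to 561 CPM. The GFP+ libraries after anti-PD-L1 held 419, 476 and 850 CPM, of which the highest is KT21. That library turned the direction of Ly6e: the GFP difference after anti-PD-L1 was 0.11 ± 0.21 over 12 libraries and -0.27 ± 0.11 over 10, and the treatment difference in GFP+ cells was 0.09 ± 0.21 over 12 and -0.31 ± 0.12 over 10. None was called by edgeR (adjusted p = 0.993 and 0.9997 over 12 libraries, 0.827 and 0.419 over 10). In non-treated mice the GFP difference was -0.10 ± 0.21 over 12 and -0.08 ± 0.11 over 10 libraries.

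Ly6d and Ly6k were near the low end of the measured genes, at the 31.1 and 24.6 percentile of mean CPM among those tested, and their groups overlapped in all 4 comparisons over 12 libraries. Ly6d ranged from 1.57 to 9.003 CPM in GFP- and from 2.58 to 9.12 CPM in GFP+ cells of non-treated mice, and from 1.81 to 3.91 CPM and 2.22 to 5.09 CPM after anti-PD-L1. Its coefficient of variation in a group reached 79.6%. Log2 fold changes of Ly6d lay between -0.96 ± 0.61 and 0.51 ± 0.60 over 12 libraries. Its 95% intervals there included both 0 and a 2-fold change in each comparison. Over 10 libraries the fold changes lay between -1.27 ± 0.59 and 0.89 ± 0.52. The lowest, for treatment in GFP+ cells, had an interval of -2.49 to -0.05 and was not called (edgeR adjusted p = 0.567). In that comparison the treated libraries lay below the non-treated ones. Ly6k ranged from 1.32 to 4.59 CPM without and from 1.56 to 3.11 CPM with treatment. Its log2 fold changes lay between -0.62 ± 0.53 and -0.13 ± 0.52 over 12 libraries. Over 10 they lay between -0.50 ± 0.62 and -0.42 ± 0.54. Reads of the antisense gene Gm17189, which overlaps Ly6k, were at 0 in all libraries.

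Counted together, none of the 7 members was called by edgeR over 12 libraries in any of the 4 comparisons or in the interaction of GFP and treatment, beside 0.00706%, 0.0282%, 0.0141%, 0% and 0% of the 14173 genes tested. At an unadjusted edgeR p under 0.05 there were 2, 2, 1, 0 and 1 members, beside 857, 578, 955, 487 and 295 of the 14173 genes. DESeq2 called 2, 0, 1, 0 and 0 members. Of the same 14173 genes, it called 53, 47, 93 and 33 in the 4 comparisons. Over 10 libraries, 2 members were called lower in GFP+ cells of non-treated mice (Ly6a and Ly6g5b), 1 lower in GFP+ cells after anti-PD-L1 (Ly6g5b), 1 higher with treatment in GFP+ cells (Ly6a), and none with treatment in GFP- cells or in the interaction, beside 0.339%, 0.17%, 0.563%, 0.373% and 0% of 14747 genes. Without overlap between libraries of the 2 groups were Ly6a and Ly6g5b for GFP without treatment (12.8% of all genes), no member for GFP after anti-PD-L1 (10.6%), Ly6a for treatment in GFP+ cells (10.3%) and no member for treatment in GFP- cells (12.3%). The median log2 fold change of the 7 members was -0.10 for GFP without treatment, beside 0.00 over all genes.

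Within the chromosome 15 cluster, the lower level in GFP+ cells was thus not shared by all neighbors. Ly6c1 and Ly6c2, whose starts lie at -50.8 and -113.9 kb from that of Ly6a (negative, upstream), and Ly6e, at 43.0 kb, had log2 fold changes of 0.23 ± 0.16, 0.05 ± 0.15 and -0.10 ± 0.21 in non-treated mice. Ly6i and Ly6f, close relatives of Ly6a with transcripts 87.4% and 85.5% identical to it, were low and depended on the 2 libraries that stand apart. Ly6f held 9.003 to 12.9 CPM in GFP- cells and 4.25, 5.76 and, in KT13, 17.6 CPM in GFP+ cells of non-treated mice, and after anti-PD-L1 10.9 to 18.2 CPM against 7.33, 7.60 and, in KT21, 43.5 CPM. Its log2 fold change in non-treated mice was -0.33 ± 0.63 over 12 libraries and -1.20 ± 0.30 over 10 (edgeR adjusted p = 0.098), and that of Ly6i was 0.08 ± 0.67 and -0.59 ± 0.43 (adjusted p = 0.725). Of the 526 words of 75 bases in the ends of Ly6a transcripts, 1 occurs in Ly6c1 and none in Ly6f or Ly6i.

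**Figure D4:**
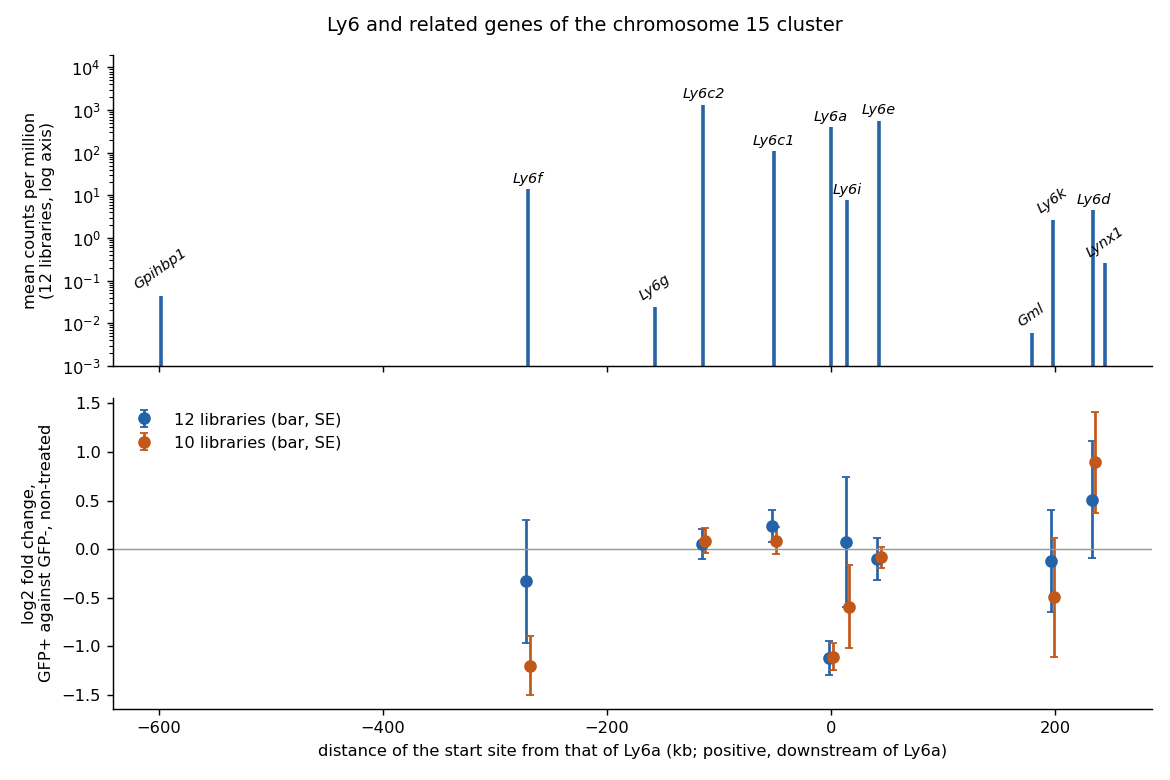
Ly6 and related genes of chromosome 15 by the distance of their start from that of Ly6a (horizontal axis, kb, positive downstream of Ly6a; genes with no count are left out); top, mean CPM over 12 libraries on a log axis; bottom, log2 fold change of GFP+ against GFP- cells of non-treated mice for the genes tested, with SE bars. Ly6a lies at -1.1 with either set of libraries, while Ly6c1, Ly6c2 and Ly6e lie within 0.25 of 0.

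Most of the rest of the family was almost silent in these cells. Ly6f and Ly6i, at means of 13.95 and 7.79 CPM, lay above the members Ly6d and Ly6k. Of 35 other Ly6 and uPAR family genes listed, 31 were in the table, 15 of them had no count in any library, and 26 never reached 10 counts in a library. The 4 that were tested were Ly6f, Ly6i, Lypd6b and Plaur, the urokinase receptor gene. None was called over 12 or 10 libraries, beside at most 0.0282% and 0.563% of all genes in a comparison. Ly6g, which encodes the Ly6G antigen of neutrophils, had 4 counts in all 12 libraries together, and the 8 neutrophil markers summed to no more than 7.43 CPM.

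Genes of the interferon pathway, which induces Ly6a, Ly6c and Ly6e in many cells, were measured beside the members. None of 40 interferon-induced genes was called over 12 libraries in any comparison. Of all genes tested, at most 0.0282% were called in a comparison over 12 libraries and at most 0.563% over 10. With so few calls among all genes, none among 40 says little about them. Over 12 libraries, 34 of the 40 genes had a log2 fold change below 0 for GFP without treatment and 33 with it. Their median log2 fold change between GFP+ and GFP- cells was -0.20 without and -0.16 with treatment, beside 0.00 over all genes, and 6 and 3 of them were lower at an unadjusted p under 0.05, where 857 and 578 of the 14173 genes lay in either direction. Over 10 libraries 8 and 12 were lower at that p, with medians of -0.16 and -0.18, where 1362 and 788 of 14747 genes lay in either direction, and again none was called. Isg15, which encodes a ubiquitin-like protein, had -0.15 ± 0.16 without and -0.44 ± 0.16 with treatment. The 16 receptor and signaling genes of the pathway also held no call, with medians of -0.06 and -0.08. Ifngr1, a chain of the interferon-γ receptor, had 0.35 ± 0.21 in non-treated mice.

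In each comparison, at most 0.0282% of all genes were called over 12 libraries and 0.563% over 10. The 28 genes that build and attach the GPI anchor gave no call either. Their median GFP difference was 0.00 both without and with treatment over 12 libraries, and 0.01 and -0.08 over 10. Of 20 naive and memory CD8 markers, none was called over 12 libraries. Over 10 libraries, Il7r, the interleukin-7 receptor gene, was lower in GFP+ cells after anti-PD-L1 (-0.69 ± 0.13, edgeR adjusted p = 0.0178), Ccl5, a chemokine gene, was higher with treatment in GFP+ (1.03 ± 0.18, adjusted p = 0.00279) and GFP- cells (0.99 ± 0.14, adjusted p = 3.10e-04), and Klf2, a factor of naive T cells, was lower with treatment in GFP+ cells (-0.89 ± 0.20, adjusted p = 0.0441). Of 14 STAT5 target genes, Prf1, which encodes perforin, was called over 12 libraries, being higher with treatment in GFP+ cells (1.71 ± 0.22, edgeR adjusted p = 0.0121). Over 10 libraries, Gzma, a granzyme gene, was lower in GFP+ cells both without (-1.75 ± 0.30, adjusted p = 0.00856) and with treatment (-2.03 ± 0.30, adjusted p = 0.00238), and Id2, a transcriptional regulator of effector T cells, was lower in GFP+ cells without treatment (-0.83 ± 0.18, adjusted p = 0.044) and higher with treatment in GFP+ cells (0.94 ± 0.19, adjusted p = 0.0182). Gzmb, Prf1 and Ifng were also higher with treatment in GFP+ cells over 10 libraries, and Gzma, Gzmb and Prf1 in GFP- cells.

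Across the 12 libraries, the gene whose log2 level was most like that of Ly6a, among 9549 genes of at least 5 CPM, was Cd8b1, the CD8 beta chain (Pearson r = 0.969, and 0.9754 over 10 libraries). It was followed by S100a4 (0.942), a calcium-binding protein gene, Ctla2a (0.936), a protease inhibitor gene, Gzma (0.934) and Thy1 (0.933), which encodes another GPI-anchored surface protein. Cd8b1 held 643 ± 26 CPM in GFP- and 412 ± 32 CPM in GFP+ cells of non-treated mice (SD, n = 3). After anti-PD-L1 it held 736 ± 93 CPM and 597 ± 104 CPM. Its libraries ran from 378 to 827 CPM and those of Ly6a from 203 to 616.5 CPM. The span of Ly6a was thus wider as a fold, but not in CPM. Among members, Ly6a was closest to Ly6g5b (r = 0.805), and Ly6c1 to Ly6c2 (0.672 over 12 libraries and 0.927 over 10). Ly6a and Ly6c2 had r = -0.176. These correlations describe libraries that share group, sort and depth, and the 12 points are not independent draws. The part of shared reads in the likeness of Ly6c1 and Ly6c2 was not tested.

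**Figure D5:**
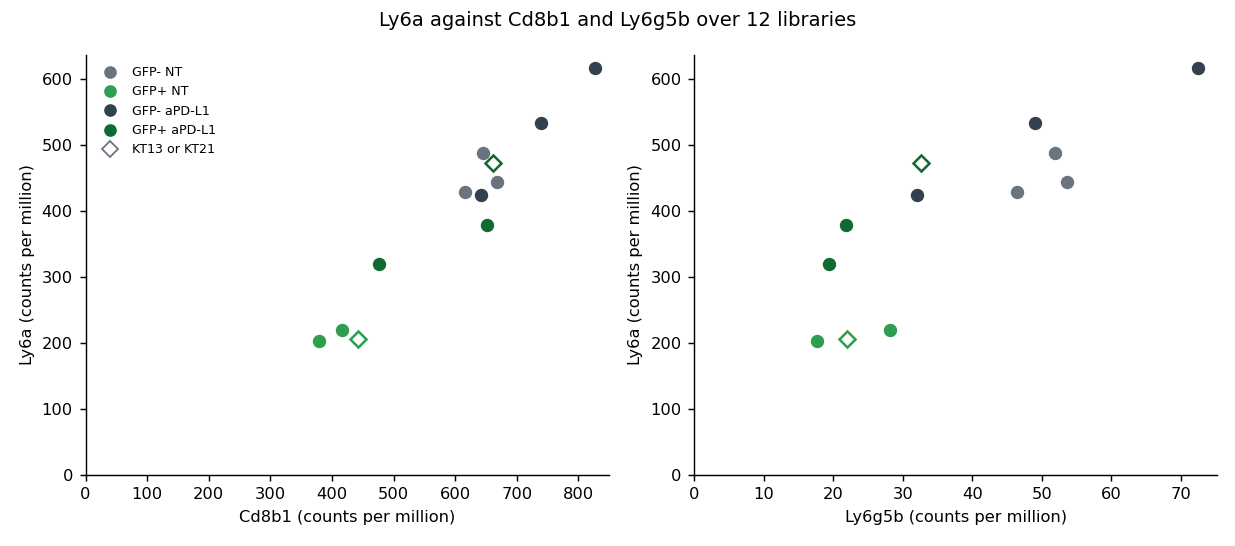
Ly6a (vertical axis) against Cd8b1 (left) and Ly6g5b (right), all in CPM with axes from 0, one point per library with colors for the 4 groups and open diamonds for KT13 and KT21. The 3 GFP+ libraries of non-treated mice lie at the low end of all 3 genes, with 203 to 219 for Ly6a.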

How the data were processed

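The 12 libraries were 3′ RNA-sequencing libraries (single-end reads) of sorted CD8+ cells. The authors deposited raw counts per gene, made by trimming with cutadapt (1.7 in the submitters' processing notes), alignment to mm10 with HISAT2 and counting with featureCounts (Subread 1.6.4 in those notes). The strand setting, the treatment of multi-mapping reads and the annotation release are not given in the sources used here. The deposited counts are not normalized or divided by length, and the authors scaled them to TMM log2 CPM for their own analysis.

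Genes were filtered with filterByExpr and fitted with edgeR 4.0.16 (R 4.3.3, TMM factors, quasi-likelihood F test) in one model of 4 groups, with Benjamini-Hochberg adjustment over all genes tested and a threshold of 0.05. DESeq2 1.42.0, other size factors, other count filters, the 2 groups compared alone and libraries left out were alternatives. The fit was also run on simulated counts with independent libraries, none of which stood apart. That run cannot show how the fit handles KT13, KT21 or shared mice. CPM are TMM-normalized, and 0.5 was added before logs for correlations. The least deep library, KT13, held 11292699 counts. No paired analysis was run, because no label links a GFP+ library to a GFP- library. The fit thus treated all libraries as independent, and its standard errors and p-values for GFP do not account for shared mice. Whether GFP+ and GFP- libraries came from the same mice is not given in the sources used here.

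The members and the gene lists were chosen with earlier results of these data known. Named genes were the 7 members, called genes of the lists (at most 6 per list and comparison), a few pathway genes by value, defining markers, neighbors and the 5 genes most like a member. No columns were left out of the table. Promoters of Ly6a, Ly6d, Ly6e and Ly6k and protein sequences were not used here.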

Additional observations from a re-analysis of the deposited data

How the results depend on the processing

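Of 273 planned comparisons of a member's log2 fold change with an alternative (leaving single libraries out aside), 241 kept direction and side of the threshold, 16 passed the threshold and 16 turned direction; no reversed value was called. The filter, the tool and the libraries KT13 and KT21 decided the calls, and the cause was not tested. Members called for GFP without treatment were 2 without KT13 and KT21, 2 with no filter beyond 1 count, 2 with DESeq2 and 2 with DESeq2 without KT13 and KT21, against 0. For GFP after anti-PD-L1 they were 1, 1, 0 and 2, and for treatment in GFP+ cells 1, 1, 1 and 1. All genes called under the same 4 settings were 50, 78, 53 and 131 for GFP without treatment (main count 1), 25, 49, 47 and 64 for GFP after anti-PD-L1 (4), 83, 123, 93 and 142 for treatment in GFP+ cells (2), and 55, 60, 33 and 91 for treatment in GFP- cells (0). With no filter 10 genes were called in the interaction (0). With the 2 groups compared alone the counts were 0 for GFP after anti-PD-L1, 0 for treatment in GFP+ cells and 51 for treatment in GFP- cells.

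Log2 fold changes that turned direction were all small. For Ly6e after anti-PD-L1 the GFP difference was -0.27 without KT13 and KT21 and -0.27 with DESeq2 on those 10 libraries, the treatment difference in GFP+ cells -0.31 and -0.32, and the interaction -0.19 and -0.19. For Ly6g5b the treatment difference in GFP+ cells was -0.16 and -0.17 and the interaction -0.17 and -0.18; relative to the summed CD8 T cell markers it was -0.28 in GFP+ and -0.18 in GFP- cells, and with upper-quartile factors -0.0058 in GFP- cells. For Ly6c1 the treatment difference in GFP+ cells was 0.0015 without KT13 and KT21, and its interaction 0.080 without them, 0.074 with DESeq2 on those 10 libraries and 0.0062 with no filter. For Ly6c2 the treatment difference in GFP+ cells was 0.0041 with no filter.

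With each library left out in turn, members called for GFP without treatment ran from 0 to 1 (Ly6a, without KT21). All genes called ran from 0 (without KT14) to 6 (without KT21) for GFP without treatment, from 0 (without KT15) to 7 (without KT13) for GFP after anti-PD-L1, from 0 (without KT15) to 34 (without KT21) for treatment in GFP+ cells, and from 0 (without KT14) to 28 (without KT21) for treatment in GFP- cells. Ly6a ran from -1.17 to -1.06 for GFP without treatment. Directions turned within these ranges: for GFP without treatment Ly6c2 -0.043 to 0.16 and Ly6k -0.52 to 0.18; for GFP after anti-PD-L1 Ly6d -0.0081 to 0.74 and Ly6e -0.27 to 0.33; for treatment in GFP+ cells Ly6c1 -0.21 to 0.060, Ly6c2 -0.059 to 0.092, Ly6e -0.29 to 0.30 and Ly6g5b -0.13 to 0.32; for treatment in GFP- cells Ly6d -1.22 to 0.020 and Ly6g5b -0.32 to 0.26; and for the interaction Ly6c1 -0.13 to 0.14, Ly6d -0.97 to 0.30, Ly6e -0.17 to 0.42, Ly6g5b -0.15 to 0.45 and Ly6k -0.51 to 0.21. Where a group kept 2 libraries, the fit still shared its spread with the other groups. The share of Ly6c2 moved with KT13, from a GFP difference of -0.87 percentage points to 0.04 without KT13 and KT21. Depth was lowest for Ly6d and Ly6k, with as few as 24 and 21 counts in a library, and how much of their spread is counting error was not tested.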

Other observations

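Ly6c2 and Ly6e had their own nearest genes. Over 12 libraries the log2 level of Ly6c2 was most like those of Stmn1 (Pearson r = 0.861), a microtubule regulator gene of dividing cells, Il4ra (0.857), Eri3 (0.846), Cdc25b (0.829), a cell cycle phosphatase gene, and Pink1 (0.824). Ly6e was most like Atp2a3 (0.932), a calcium pump gene, Lgals3bp (0.916), Ldah (0.906), Psmb10 (0.880), an immunoproteasome subunit gene, and Cnp (0.880). Without KT13 and KT21 the values for Ly6e were 0.881, 0.770, 0.812, 0.678 and 0.745. None of these 10 genes is among the 5 most like Ly6a. These are descriptions over libraries that share group and sort.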
